A study of Mus musculus with 8 samples.

Results

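Cholesterol synthesis and sterol handling were followed through 28 genes, listed by their place in the pathway with earlier results of these data known. All 28 were on the array, represented by 45 of its 41174 probes, out of 18883 genes that could be named. They comprised 18 enzymes of synthesis, 5 genes of sterol sensing, 2 of uptake and intracellular transport, and 3 of efflux and its control. RNA came from 8 samples of mammary tumour cell lines, derived from FVB mice carrying the polyoma middle T (PyMT) transgene, and every sample had received 50 uM camptothecin (CPT), a topoisomerase I poison, for 36 h. In the first experiment the WTA line, of wild-type genotype, carried a lentiviral short hairpin RNA against Snd1 (LKO1-shSnd1, 3 arrays) or the empty LKO1 vector (3 arrays), both selected with puromycin. In the second the KO2 line, from the Mtdh-knockout model, was sorted for GFP after receiving wild-type mouse Mtdh (LmPGK-mMtdh-ires2-GFP, 1 array) or the W391D mutant, deficient in Snd1 binding (LmPGK-mMtdhspm13-ires2-GFP, 1 array). Each line came from 1 tumour model, the control of the hairpin was an empty vector, and no untreated cells were analysed here. Each sample carried Cy5 and was hybridised against Cy3-labelled Universal Mouse Reference RNA, a mix of 11 cell lines, so each value below is log2 of Cy5 over Cy3 and a value of 0 means the level of the reference.

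Cells make cholesterol from acetyl-CoA by way of mevalonate, isoprenoid diphosphates, squalene and lanosterol. When sterols in the endoplasmic reticulum are scarce, Scap escorts the SREBP transcription factors (genes Srebf1 and Srebf2) to the Golgi, where they are cleaved and then raise transcription of the synthesis enzymes and of the lipoprotein receptor. When sterols are plentiful, Insig proteins hold Scap back, and oxysterols activate LXR (Nr1h3 encodes LXR-alpha), which raises the exporters Abca1 and Abcg1. Dividing tumour cells use the pathway for membranes and for the prenyl groups of small GTPases.

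SREBP proteins bind sterol regulatory elements and work together with NF-Y, which binds CCAAT, and Sp1, which binds GC boxes, so the promoters of the members were read for these letters. RefSeq (build GRCm38.p6) gave a promoter for 22 of the 28 genes, and none was listed for Fdps, Fdft1, Sqle, Stard4, Npc1 and Abcg1. Only the 250 bases before each listed transcript start were used, on both strands. Dhcr7, Insig2 and Srebf1 had 3 such windows each, and Pmvk, Scap and Nr1h3 had 2. Over all 27025 genes there were 32851 windows. A gene was counted if any of its windows held the letters, so genes with several starts could match more easily. The 4 promoters shown belong to Hmgcs1, to Idi1 and Nsdhl, the enzymes that fell most, and to Insig1, which moved the opposite way. Of the 22 genes only Hmgcs1 held TCACCCCAC. Apart from the looser form given below, other forms of the element were not searched. Capitals mark TCACCCCAC, CCAAT and GGGCGG or their reverse complements.
Hmgcs1, chr13:119690101-119690350, plus strand: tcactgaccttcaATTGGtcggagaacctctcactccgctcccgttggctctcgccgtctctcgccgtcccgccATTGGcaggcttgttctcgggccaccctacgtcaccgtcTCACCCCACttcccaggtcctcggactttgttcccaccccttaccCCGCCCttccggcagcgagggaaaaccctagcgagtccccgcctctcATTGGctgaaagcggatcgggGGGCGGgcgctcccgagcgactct
Idi1, chr13:8885356-8885605, plus strand: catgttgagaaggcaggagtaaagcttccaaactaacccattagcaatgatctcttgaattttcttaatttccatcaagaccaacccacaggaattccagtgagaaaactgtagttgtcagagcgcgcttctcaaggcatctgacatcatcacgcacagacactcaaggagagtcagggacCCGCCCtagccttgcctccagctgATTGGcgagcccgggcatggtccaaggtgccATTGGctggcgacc
Nsdhl, chrX:72918271-72918520, plus strand: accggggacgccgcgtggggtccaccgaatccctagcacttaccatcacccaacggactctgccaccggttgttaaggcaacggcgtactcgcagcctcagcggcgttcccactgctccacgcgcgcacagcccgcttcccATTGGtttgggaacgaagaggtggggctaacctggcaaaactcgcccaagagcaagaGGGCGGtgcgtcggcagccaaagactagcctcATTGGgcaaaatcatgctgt
Insig1, chr5:28071162-28071411, plus strand: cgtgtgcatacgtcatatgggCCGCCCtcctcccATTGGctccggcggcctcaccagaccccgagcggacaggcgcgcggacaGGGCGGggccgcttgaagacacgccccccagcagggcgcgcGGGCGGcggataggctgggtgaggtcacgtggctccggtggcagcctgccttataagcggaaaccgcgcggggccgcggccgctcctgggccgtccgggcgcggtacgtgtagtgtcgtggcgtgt

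The form TCACCCCAC of the sterol regulatory element was found in 1 of the 22 genes, Hmgcs1, where it began 137 bases before the start. It was found in 0.555% of 27025 genes with a promoter in the table. Allowing any base at 1 position (TCACNCCAC, which includes every match of the first form) still gave 1 member, against 1.22% of genes. CCAAT lay in 18 of the 22, against 37.5% of all genes and 39.5% of the 13728 genes that were measured here and had a promoter. GGGCGG lay in 20 of the 22, against 35.4% and 53.4%. Among the 15 members that fell with a promoter, 12 held CCAAT and 15 held GGGCGG, and among the other 7 members the counts were 6 and 5. The E-box CACGTG lay in 6 of the 22, against 6.86% of all genes and 8.74% of the measured genes with a promoter. The direct repeat bound by LXR lay in none, against 0.0148% of all genes. These motifs are not exclusive of one another and their presence is a description of the letters alone.

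In Cy5, 78.02% to 88.47% of 43379 spots other than controls passed the scanner software's background test, depending on the array. Across probes, which are not independent replicates, log ratios of arrays within the vector or knockdown group had correlations of 0.978 to 0.992, and those between the groups 0.854 to 0.874. The vector arrays had correlations of 0.871 to 0.887 with the 2 arrays of the KO2 line, and the knockdown arrays 0.748 to 0.782. Replicate 1 of knockdown and of vector lay together on a first slide, with median Cy5 signals of 158 and 161. Replicates 2 and 3 of both lay on another, with medians of 262.5 to 306, and the rescue arrays were on a slide each. The number of arrays limits the precision, and because the labels do not say whether replicates were separate cultures, the p-values rest on a spread between arrays that may be technical. Snd1, the target of the hairpin, stood at -3.23, -3.33 and -3.44 in the knockdown and at -2.49, -2.40 and -2.43 in the vector arrays. It was 1.86-fold lower (log2 fold change -0.90 ± 0.06 SE, limma adjusted p = 1.04e-05, n = 3 and 3).

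Markers of the labelled cell type were present. Of 6 mammary epithelial markers all were well above background on the 6 arrays, and their mean log2 ratio was 1.24 to 1.27 in the knockdown and 1.48 to 1.61 in the vector. Epcam, Cdh1, Krt7, Krt8 and Krt18 were lower in the knockdown and Krt19 was higher, and the second probes of Krt7 (-0.47) and Krt8 (-0.79) were lower too. Unlike the others, Krt19 lay far below the reference, with a mean of -3.24 in the knockdown and -4.13 in the vector. The 8 fibroblast markers averaged -3.62 to -3.54 against -4.35 to -4.30, with 5 called higher, led by Pdgfrb (2.44 ± 0.05) and Col1a1 (2.39 ± 0.07, and 0.72 and 0.20 by its other probes), while Dcn (0.02 ± 0.06), Lum (0.10 ± 0.08) and Thy1 (0.20 ± 0.07) did not pass the test. Leukocyte markers (5 genes) averaged -1.98 to -1.97 against -2.13 to -2.08, endothelial markers (4) 0.71 to 0.88 against 0.72 to 0.82, and adipocyte markers (5) 0.59 to 0.62 against 0.39 to 0.46. The adipocyte average rested mainly on Fabp4 (mean 2.54 in the knockdown and 2.03 in the vector), and the list's medians were 0.09 and 0.02. Fabp4 and Adipoq were called higher and the other 3 adipocyte markers did not pass. Among the endothelial genes Kdr was higher (0.67 ± 0.07) and Cdh5 lower by its brightest probe (-0.54 ± 0.18), while its second probe did not pass (-0.17 ± 0.09, adjusted p = 0.167). Itgam was above background on only 1 array of each group and Tek on none. The part of these shifts in the sterol genes was not tested, and in RNA from whole cultures fewer cells of a type and less RNA per cell cannot be told apart.

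Knockdown against vector asked how sterol genes stand when Snd1 is reduced in camptothecin-treated cells. Most synthesis enzymes fell, from the first step to the last, together with the transcription factors Srebf1 and Srebf2 and the sterol carrier Stard4. The exporter Abcg1, the receptor Nr1h3, the lysosomal transporter Npc1 and the SREBP brake Insig1 rose. Of the 28 members, each well above background in Cy5 and Cy3 on all 8 arrays, 19 were lower and 4 higher at an adjusted p under 0.05 in limma's fit over all 25683 features, and 5 did not pass. Over all features 21.1% were lower and 23.6% higher. The median log2 fold change was -0.41 over the members and 0.02 over all features. A change of at least 1.5-fold was called downwards in 10 members, against 5.81% of features, and upwards in 2, against 6.31%.

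**Figure D1:**
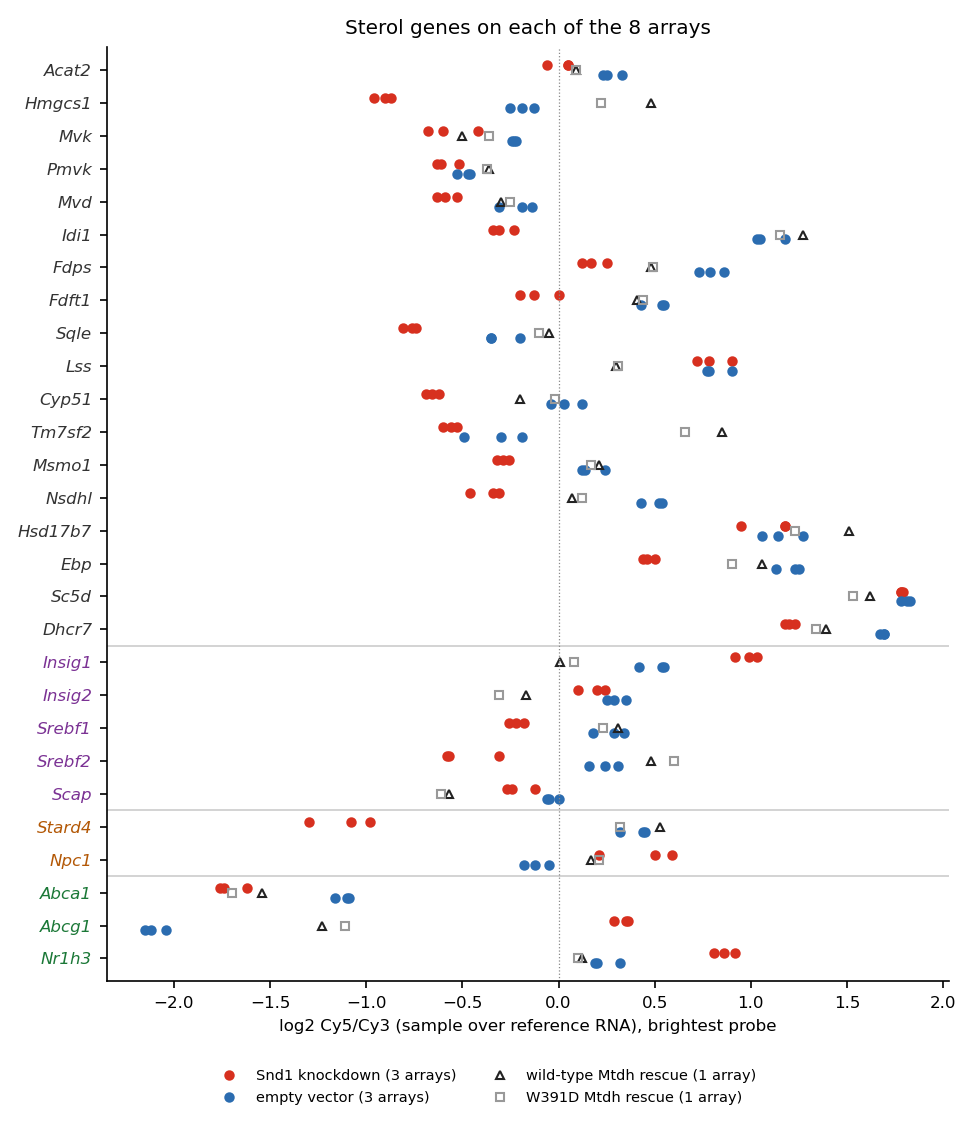
Log2 of Cy5 over Cy3 for the brightest probe of each of the 28 genes (rows, in pathway order; black names are synthesis, purple sensing, orange uptake and transport, green efflux), with 1 point per array for Snd1 knockdown, empty vector and the 2 rescue samples. Knockdown points lie below all vector points for 20 genes and above them for 4 (Insig1, Npc1, Abcg1 and Nr1h3), and the widest gap is that of Abcg1.

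The plot of values by array shows how cleanly the groups separated. The 3 knockdown values lay below the 3 vector values for 20 members and above them for 4, against 24.5% and 28.7% of all features, and they overlapped for Pmvk, Lss, Hsd17b7 and Sc5d.

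The first steps turn acetyl-CoA into mevalonate. Acat2, the cytosolic thiolase that joins acetyl-CoA units, was slightly lower in the knockdown (-0.25 ± 0.05, adjusted p = 0.00394). Hmgcs1, which makes HMG-CoA, stood at -0.87, -0.90 and -0.96 in the knockdown arrays and at -0.25, -0.13 and -0.19 in the vector arrays. Every knockdown array was thus well below every vector array, a 1.64-fold fall (-0.72 ± 0.05, adjusted p = 1.13e-05). A much dimmer second probe of Hmgcs1 (mean brightness 7.10 against 13.18 in log2 units) fell by 0.19 on the log2 scale, and the mean of both probes gave -0.45.

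Mevalonate is then phosphorylated and decarboxylated to isopentenyl diphosphate. Mevalonate kinase, Mvk, fell by 0.34 on the log2 scale (adjusted p = 0.00407), and its second probe gave -0.35. Mvd, the decarboxylase, was 1.29-fold lower (-0.37 ± 0.06). Pmvk, the phosphomevalonate kinase that acts between them, did not pass the test (-0.10, 95% interval -0.21 to 0.02), and its knockdown values of -0.52, -0.61 and -0.63 overlapped vector values of -0.53, -0.46 and -0.47. Its second probe gave -0.13 ± 0.05 and also missed the threshold (adjusted p = 0.054).

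Idi1 isomerises isopentenyl diphosphate, the step that opens the assembly of isoprenoids, and it changed most among the enzymes. Its log2 ratios were -0.23, -0.34 and -0.31 in the knockdown and 1.05, 1.18 and 1.03 in the vector. The RNA therefore lay above the reference in vector cells and below it in knockdown cells, 2.61-fold lower (-1.38 ± 0.06, adjusted p = 6.95e-07), and only 0.459% of features had a lower fold change. Its dimmer second probe gave -0.90 ± 0.06.

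Farnesyl diphosphate synthase, Fdps, joins these units. It read 0.25, 0.17 and 0.12 in the knockdown against 0.73, 0.86 and 0.79 in the vector. The groups were clearly apart and the fall was 1.53-fold (-0.62 ± 0.06, adjusted p = 4.1e-05). Fdft1, squalene synthase and the first enzyme committed to sterols, read 0.00, -0.13 and -0.20 against 0.43, 0.55 and 0.54. It fell to the same extent (-0.61 ± 0.06, adjusted p = 9.67e-05), although its dimmer second probe (6.76 against 11.22) gave -0.11 ± 0.11 and did not pass, and the mean of both probes was -0.36.

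Between squalene and lanosterol the enzymes differed. Sqle, the squalene epoxidase, ran from -0.81 to -0.74 in the knockdown and from -0.35 to -0.20 in the vector, a 1.39-fold fall (-0.47 ± 0.06, adjusted p = 0.000192). Lss, lanosterol synthase, read 0.90, 0.72 and 0.78 against 0.77, 0.90 and 0.78. Its knockdown and vector values lay in the same range, with a difference of -0.01 and a 95% interval of -0.16 to 0.13, and its second probe gave -0.09 ± 0.05.

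The removal of methyl groups from lanosterol involves Cyp51, Tm7sf2, Msmo1, Nsdhl and Hsd17b7. Cyp51, the 14-alpha demethylase, read -0.62, -0.66 and -0.69 in the knockdown and 0.03, 0.12 and -0.04 in the vector. All 3 of its probes fell, the brightest by 1.61-fold (-0.69 ± 0.05, adjusted p = 1.75e-05) with -1.03 and -0.82 from the others. Nsdhl, the 4-carboxysterol dehydrogenase, read -0.31, -0.34 and -0.46 against 0.54, 0.52 and 0.43. That was a 1.82-fold fall (-0.86 ± 0.06, adjusted p = 7.63e-06), with -0.87 and -0.68 from its other probes, so for these enzymes each probe passed the test in the same direction.

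Msmo1, the C-4 methylsterol oxidase, ran from -0.32 to -0.26 against 0.12 to 0.24 (-0.45 ± 0.05). Tm7sf2, a sterol delta-14 reductase, was lower by a small amount (-0.24 ± 0.07, adjusted p = 0.0304). Its call was close to the threshold. The difference was -0.07 in the first slide's pair and -0.32 among the second slide's arrays. Tm7sf2 did not pass without knockdown replicate 1 (-0.24, adjusted p = 0.0612), knockdown replicate 2 (-0.25, 0.0576) or knockdown replicate 3 (-0.22, 0.0943). Nor did it pass without vector replicate 2 (-0.17, 0.0913) or vector replicate 3 (-0.23, 0.0849), while it passed without vector replicate 1 (-0.32, 0.00275). It also missed the threshold with scaling between arrays (-0.22, 0.0788) and with the Cy5 channel alone (-0.29, 0.062). Over all its alternatives the change ran from -0.39 to -0.17. Hsd17b7, the 3-ketosterol reductase, did not pass (-0.06, interval -0.24 to 0.13), while its second probe was called slightly higher (0.15 ± 0.05, adjusted p = 0.0438 in the fit over all probes).

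The last steps rearrange double bonds into cholesterol. Ebp, the sterol isomerase, read 0.46, 0.50 and 0.44 in the knockdown and 1.13, 1.25 and 1.23 in the vector, 1.66-fold lower (-0.73 ± 0.05, adjusted p = 8.52e-06). Dhcr7, the 7-dehydrocholesterol reductase, ran from 1.18 to 1.23 against 1.67 to 1.69 (-0.48 ± 0.04, adjusted p = 3.19e-05), with -0.28 from its second probe. Sc5d, the lathosterol oxidase that acts between them, read 1.78, 1.79 and 1.78 against 1.81, 1.83 and 1.78. Its difference of -0.03 had an interval of -0.12 to 0.07, a narrow range that holds 0. Over the 18 enzymes together 14 fell, 7 of them by at least 1.5-fold, none rose and 4 did not pass, with a median of -0.46.

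**Figure D2:**
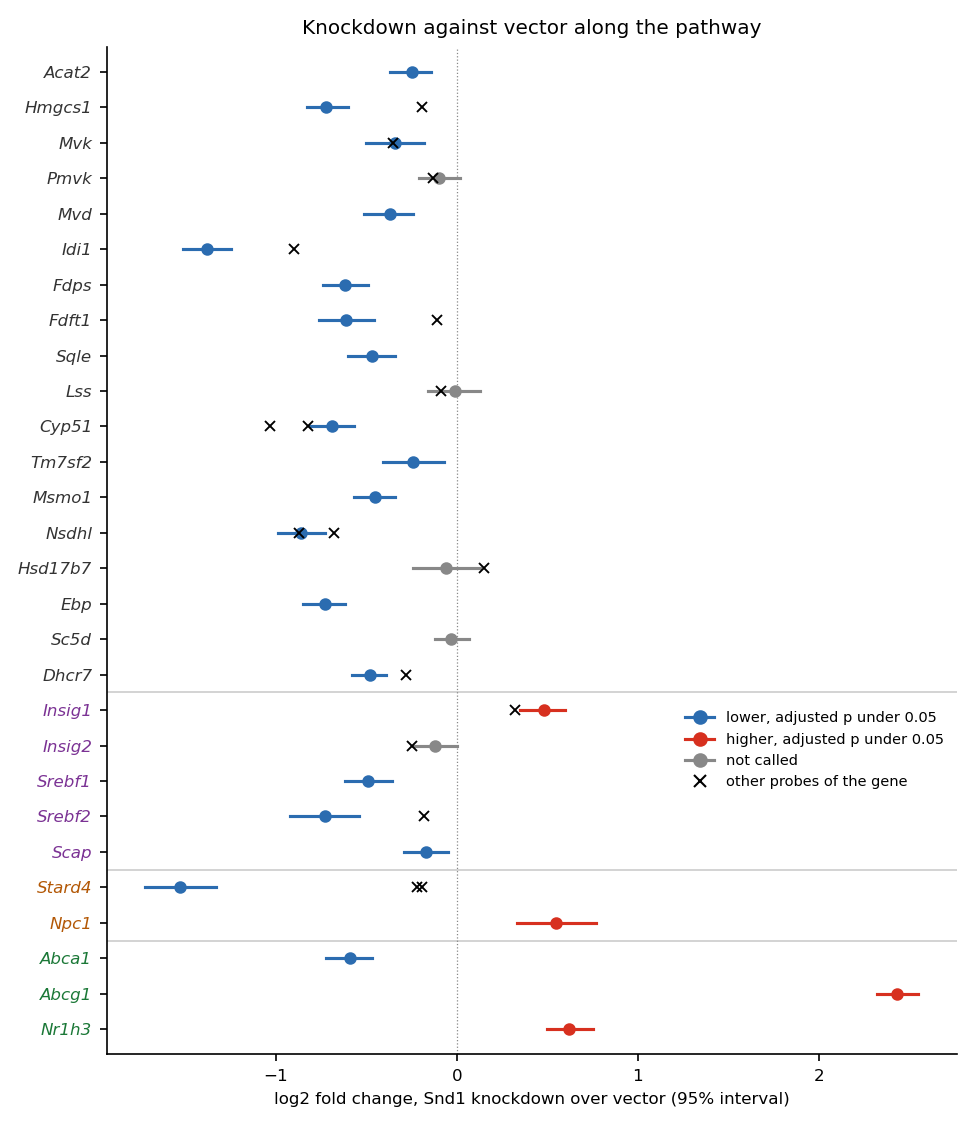
Log2 fold change of Snd1 knockdown over vector for each gene's brightest probe (points with 95% intervals, 3 against 3 arrays), in pathway order from top to bottom, with crosses for the other probes of the gene. Of the 18 synthesis enzymes 14 lie below 0 as called, Pmvk, Lss, Hsd17b7 and Sc5d have intervals that reach 0, and Abcg1 lies farthest to the right at 2.43.

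The genes that sense sterols did not move as 1 block. Srebf2, which encodes SREBP-2, the main activator of the synthesis genes, read -0.31, -0.57 and -0.58 in the knockdown and 0.16, 0.31 and 0.24 in the vector. It fell 1.66-fold (-0.73 ± 0.08, adjusted p = 0.000144), and its dimmer second probe (7.37 against 9.85) fell by 0.18 on the log2 scale, for a mean of both of -0.45. Srebf1, which encodes SREBP-1, read -0.18, -0.22 and -0.26 against 0.18, 0.34 and 0.29, a 1.4-fold fall (-0.49 ± 0.06, adjusted p = 0.000157). The single Srebf1 probe was not assigned to either of the gene's promoters, whose transcripts encode the SREBP-1a and SREBP-1c proteins.

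Scap, the escort of the SREBPs, read -0.12, -0.24 and -0.27 in the knockdown and -0.06, 0.00 and -0.05 in the vector. The fall was small (-0.17 ± 0.05, adjusted p = 0.0271) and was larger on the second slide (-0.23) than on the first (-0.06). It did not pass without knockdown replicate 2 (-0.16, adjusted p = 0.0884), knockdown replicate 3 (-0.14, 0.0932), vector replicate 2 (-0.16, 0.0889) or vector replicate 3 (-0.18, 0.0642), nor with the scanner software's log ratios or the deposited value table (-0.13 and 0.0726 for each) or the Cy5 channel alone (-0.17, 0.142), in a range of -0.28 to -0.13.

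The paralogs Insig1 and Insig2, which retain Scap in the endoplasmic reticulum, parted. Insig1, itself a known SREBP target, read 0.92, 1.03 and 0.99 in the knockdown and 0.42, 0.54 and 0.55 in the vector. It rose 1.39-fold (0.48 ± 0.05, adjusted p = 0.000181), its second probe rose too (0.32 ± 0.05), and it was the only member of sensing or synthesis called higher by its brightest probe. Insig2 read 0.10, 0.24 and 0.20 against 0.25, 0.35 and 0.29. The groups did not overlap but lay close (-0.12, interval -0.24 to 0.00, adjusted p = 0.109), and the second probe passed at -0.25 ± 0.06. The difference between the Insig paralogs was not itself tested.

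Stard4 and Npc1 move cholesterol inside the cell. Stard4, a soluble carrier between membranes and a known SREBP target, read -0.98, -1.08 and -1.30 in the knockdown and 0.32, 0.44 and 0.45 in the vector. This was the deepest fall among the members, 2.88-fold by the brightest probe (-1.53 ± 0.08, adjusted p = 2.96e-06), and only 0.308% of features had a lower fold change. The size rests on that probe: the other probes of Stard4, with mean brightness 8.15 and 8.08 against 11.54, gave -0.19 ± 0.08, which did not pass, and -0.22 ± 0.05, and the mean of the 3 was -0.65. Which of them reads the main transcript was not tested.

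Npc1, which carries cholesterol out of lysosomes, read 0.21, 0.50 and 0.59 in the knockdown and -0.18, -0.12 and -0.05 in the vector. All knockdown arrays were higher, with replicate 1 nearest to the vector, and the rise was 1.46-fold (0.55 ± 0.10, adjusted p = 0.00177).

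The efflux genes also parted. Abcg1, which exports cholesterol to lipoproteins, read 0.36, 0.29 and 0.35 in the knockdown and -2.12, -2.15 and -2.04 in the vector. Vector cells thus had far less Abcg1 RNA than the reference and knockdown cells slightly more, a 5.41-fold rise (2.43 ± 0.05, adjusted p = 2.55e-08). It was the largest change of any member, and 0.296% of features had a higher fold change. Abca1, which exports cholesterol to apolipoproteins, went the other way, with -1.62, -1.74 and -1.76 in the knockdown and -1.16, -1.10 and -1.09 in the vector. It fell 1.51-fold (-0.59 ± 0.05, adjusted p = 4.23e-05). Both are textbook LXR targets, and the LXR-alpha gene Nr1h3 read 0.81, 0.92 and 0.86 against 0.19, 0.20 and 0.32, a 1.54-fold rise (0.62 ± 0.05, adjusted p = 3.7e-05).

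Because the arrays lay on 2 slides, each difference was also taken within a slide. For 26 of the 28 members the sign was the same on both, Pmvk and Lss being the exceptions, and both were uncalled. The members' median difference was -0.315 for the first slide and -0.465 for the other. The second slide gave the larger size for 20 members, for example -1.64 against -1.30 for Stard4, -0.86 against -0.47 for Srebf2 and 0.63 against 0.38 for Npc1. Abcg1 (2.48 and 2.41) and Nr1h3 (0.62 and 0.62) differed little between the slides.

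**Figure D3:**
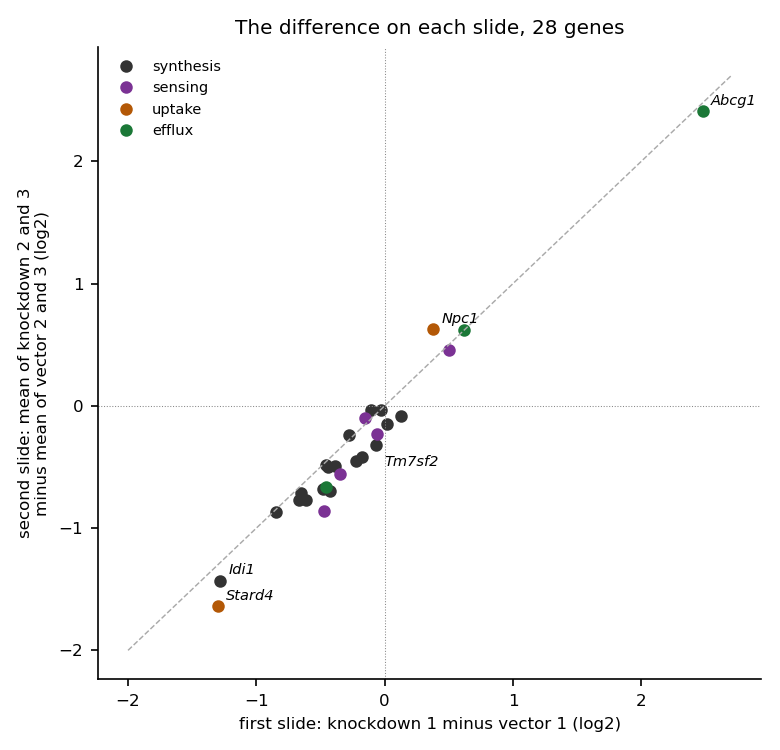
Difference between knockdown and vector (log2) on the first slide (1 array per group, x axis) and on the second (2 arrays per group, y axis), 1 point per gene, coloured by role; the dashed line marks equal differences. Most falling genes lie a little below the line, as with Stard4 at -1.30 and -1.64, and Abcg1 lies near it at 2.48 and 2.41.

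Whether Mtdh deficient in Snd1 binding leaves the sterol genes at another level than wild-type Mtdh was read from the 2 rescue arrays, which have no replicates and so no test. The sterol genes were close to each other in these samples. W391D minus wild type ran from -0.28 (Hsd17b7, 1.23 against 1.51) to 0.19 (Cyp51, -0.02 against -0.20), with a median of -0.03 over the 28 members and 0.00 over all features. None of the members passed 1.5-fold in either direction, and of 27028 features only 0.0814% did so upwards and 0.0851% downwards. By the brightest probes, differences over 0.2 in size were found for Hmgcs1 (0.22 against 0.48) and Hsd17b7, and Stard4 lay at that size (-0.2). By their second probes Insig2 differed by -0.44 and Idi1 by -0.21.

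The genes that changed most in the knockdown stood near equality here. Idi1 read 1.15 with W391D and 1.27 with wild type, Stard4 0.32 and 0.53, and Abcg1 -1.11 and -1.23. Of the 28 differences 12 were above 0 and 16 below, and 49.8% of all features were above 0. Mtdh itself read -0.10 with W391D and 0.42 with wild type by its brightest probe, a difference of -0.52, and -0.18 by its second probe. Snd1 read -1.98 and -1.92. Whether these probes read the introduced Mtdh was not tested, and its part in the differences above was not tested either.

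**Figure D4:**
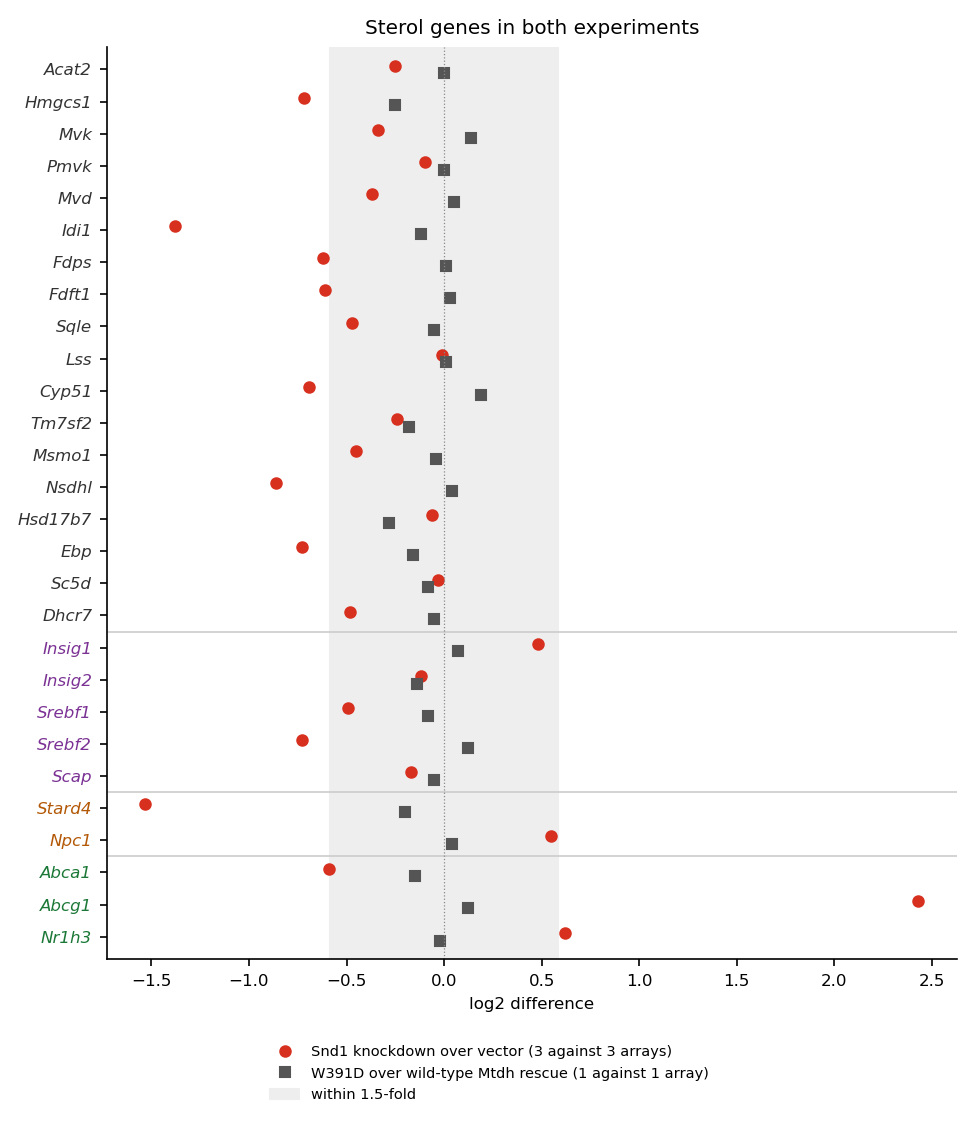
Log2 difference of each gene in the first experiment (Snd1 knockdown over vector, circles) and in the second (W391D over wild-type Mtdh rescue, squares, 1 array each), with the grey band marking changes within 1.5-fold. All 28 squares lie inside the band, between -0.28 and 0.19, whereas 12 circles lie outside it.

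The levels in the KO2 line placed the vector and knockdown values beside those of a second tumour line. Line, genotype, vector and slide all differ between these groups and cannot be told apart, so the values are a description. Of the 19 members that fell in the knockdown, the mean of the rescue arrays lay nearer to the vector mean for 13 and nearer to the knockdown mean for 6, and of the 4 that rose it lay nearer to the vector for 3. The same held for 72.9% of all features called lower and 66.7% of those called higher, so the members' counts were close to the general pattern. Idi1, with a rescue mean of 1.21, and Stard4, with 0.42, were at the vector level of 1.09 and 0.40. Abca1, at -1.62, was nearer to the knockdown level of -1.71. The rescue mean minus the vector mean was largest for Tm7sf2 (1.09) and Abcg1 (0.93), followed by Scap (-0.55), Hmgcs1 (0.54) and Insig2 (-0.54).

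Related genes that were no members were counted in the same fit to show where the pattern ended. The list called other synthesis enzymes went the way of the members: all 5 measured fell (median -0.58). It was drawn broadly. Among its genes were Erg28, a scaffold of the C-4 demethylation complex rather than an enzyme (-1.23 ± 0.04, adjusted p = 3.57e-07), and Acat1 (-0.58 ± 0.05). Acat1 is the mitochondrial thiolase, whereas the cytosolic one of the pathway is the member Acat2. The non-sterol isoprenoid branch, which leaves the pathway after farnesyl diphosphate, did not: 2 of 8 fell, 2 rose and 4 did not pass (median 0.02). In it Nus1, a subunit of the dolichol-forming transferase, rose by its brightest probe (0.88 ± 0.05; 0.06 by another), Dhdds, its partner subunit, fell (-0.21 by each of its probes), and the farnesyltransferase subunit Fntb gave 0.20 and, by another probe, -0.22.

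Of 9 genes that process SREBPs or degrade sterol-regulated proteins 2 were higher and 2 lower (median 0.05). These counts were near the shares over all features, 23.6% higher and 21.1% lower. The Golgi protease Mbtps1 (site-1 protease), which makes the first cut in SREBPs, was lower (-0.68 ± 0.04; -0.61 and -0.07 by other probes), as was Erlin2 (-0.50 ± 0.04; -0.34 and -0.07). The ubiquitin ligase Syvn1 was higher by its brightest probe (0.69 ± 0.04; 0.08 by another). The fatty acid arm of the SREBP targets also moved both ways, 7 of 14 higher and 6 lower (median 0.10). Lpin1, a phosphatidate phosphatase, rose most (2.07 ± 0.04, adjusted p = 3.19e-08; 2.08 and 1.54 by other probes), and the desaturase Scd2 (-1.43 ± 0.07) and the elongase Elovl6 (-0.90 ± 0.04) fell.

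Of 7 genes of lipoprotein uptake and lysosomal handling 4 rose and 1 fell (median 0.23), with the receptors Lrp1 (0.72 ± 0.05) and Vldlr (0.58 ± 0.04; 0.10 by another probe) higher. Among 7 LXR partners and targets 6 rose and 1 fell (median 0.20). The LXR partner Rxra rose (0.58 ± 0.06; 0.47 by another probe) and the phospholipid acyltransferase Lpcat3, an LXR target, fell (-0.36 ± 0.05). Of 10 measured genes of esterification, oxysterols and sterol carriers 4 rose and 1 fell (median 0.09): the sterol transporter Gramd1b rose (1.32 ± 0.04; 0.04 by another probe), the cholesterol 25-hydroxylase Ch25h fell (-1.23 ± 0.07) and the acyltransferase Soat1 rose by its brightest probe (0.61 ± 0.05; -0.16 and 0.34 by others). The 21.1% lower and 23.6% higher among all features are the background for these counts.

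**Figure D5:**
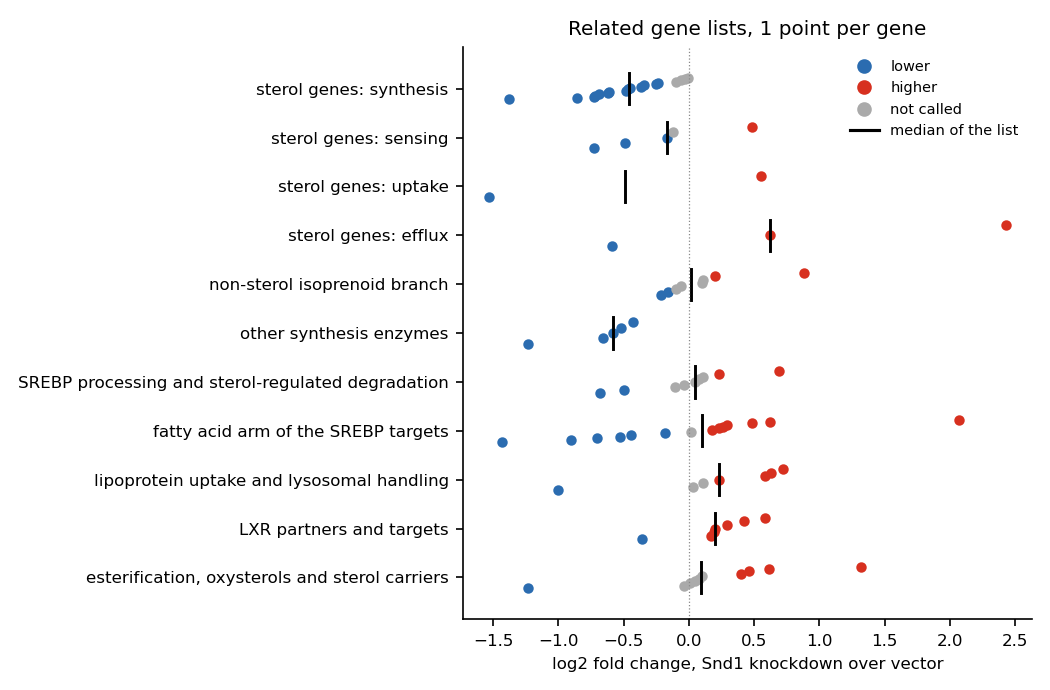
Log2 fold change of Snd1 knockdown over vector, 1 point per gene, for the 4 roles of the sterol genes and 7 lists of related genes; blue points were called lower, red higher and grey not called, and black bars are medians. The synthesis enzymes (median -0.46) and the other synthesis enzymes (-0.58) lie to the left, and the fatty acid list spreads from -1.43 to 2.07.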

How the data were processed

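The authors deposited scanner output with spot intensities for each dye and its local background. Per the file headers it came from version 11.0.1.1 of Agilent's Feature Extraction, whereas the submitters' processing notes name 9.5.3.1. The same deposited output holds log10 ratios of Cy5 to Cy3, background-subtracted and dye-normalized by the software. The deposited value table holds log2 ratios. Against each array's own log10 ratios, converted to log2 beforehand, r was 0.9878 to 1 and the slope 1 to 1.001. Scale and direction are therefore those of log2 Cy5 over Cy3, and column medians of 0.026 to 0.146 show no centring.

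Background was corrected by normexp with an offset of 50, and ratios were normalized by loess within arrays (limma 3.58.1, R 4.3.3). Control and outlier spots were left out, no spot was saturated, and spots of a probe were averaged. Unversioned accessions named 27668 of 41174 probes through RefSeq. The probe of highest mean brightness stood for a gene, and its other tested probes are given beside it. A feature was tested if its Cy5 signal passed the background test on 3 or more of the 6 arrays; lmFit and eBayes gave p-values, adjusted by Benjamini-Hochberg over all 25683 features and called under 0.05. The probe-level p-values come from the same fit over 33573 probes. The fit was tested on simulated data.

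Members and lists were chosen with earlier results of these data known. The text names all 28 members and, of each related list, the 3 called genes with the smallest p; 3 genes that this rule took are not reported here. Array values are printed for members called at 1.5-fold or more and for sensing and efflux genes, and for Pmvk, Lss, Sc5d and Npc1, chosen after their values were seen. Replicate numbers recur in the knockdown and vector groups. Arrays with the same number deviated together from their groups (r = 0.597, 0.326 and 0.338 across features), so an alternative pairs them, although differently numbered arrays of the second slide did so too (0.39 and 0.247). Alternatives changed the background correction, the source of ratios, the normalization, the channel, the filter, the handling of probes, blocks, the variance model and the arrays used.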

Additional observations from a re-analysis of the deposited data

How the results depend on the processing

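Over 19 alternatives the number of members called lower ran from 17 to 22 and that called higher stayed at 4. Leaving out each replicate gave 17 to 19 lower, 4 higher, and a median of the members between -0.45 and -0.38, with 4764 to 5371 features lower and 5190 to 6060 higher in all. The replicate block gave 19 lower and 4 higher members (5914 and 6991 features) and changed no member's call. Median centring moved the members' median to -0.54, and the Cy5 channel alone reduced all higher features to 3628 and put 1 member past 1.5-fold downwards in W391D; the cause was not tested. Requiring every probe of a gene to be called, an alternative chosen after seeing the data, left 17 lower and 4 higher. Only 14 members had several probes, and for the others this rule asks nothing more than their single probe. Among the higher members Insig1 alone had more than 1 probe. Of 532 single values 510 kept their side of the threshold, 14 lost the call (Scap and Tm7sf2, 7 each) and 8 gained one (Insig2 5, Pmvk 2, Hsd17b7 1). None that was called reversed, but the 510 include sign changes of uncalled members. Hsd17b7 went from -0.06 to 0.05 with the mean of all probes, and Lss from -0.01 to 0.03 without knockdown replicate 2. With median centring Mvd fell to -0.56, Tm7sf2 to -0.39 and Scap to -0.28. No alternative left the rescue arrays with a replicate, so their differences remain untested.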
